A study of Mus musculus with 12 samples.

Results

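B cell identity and class II genes are followed here in RNA from CD8+ T cells, the cytotoxic lymphocytes, over 12 mouse lymph node libraries. The 33 genes were taken from a list of names and not by a cut on measured values. The list was, however, chosen with earlier results of these data known. These are 33 of the 50600 genes in the count files. All 33 passed the filter on low counts, which left 16396 genes for the tests. They fall into 5 roles: 6 genes of the B cell receptor complex and its adaptors, 5 inhibitory and Fc receptor-like molecules, 6 transcription factors, 8 other surface receptors and 8 class II molecules. The animals of every library were male C57BL/6J mice aged 8 weeks, with no transgene or treatment named, held in constant darkness so that no light cue set the clock. Libraries came from circadian times (CT) 2, 6, 10, 14, 18 and 22 h on day 1 and again on day 2, 1 library for each time and day. The labels give neither the number of animals behind a library nor the way the cells were isolated, so p-values measure the spread between these libraries, which may be technical.

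B cells recognise antigen through membrane immunoglobulin, which signals through the Cd79a and Cd79b chains. Pax5 and Ebf1 are the transcription factors that hold B cells to their lineage, and CD20 (Ms4a1), CD23 (Fcer2a) and CD21 (Cr2) are surface proteins of mature follicular B cells. Class II molecules present peptides to CD4+ T cells. They are made by B cells and also by dendritic cells and macrophages. The invariant chain Cd74 guards the class II groove, H2-DM loads the peptide and H2-O restrains H2-DM. Mouse CD8+ T cells make neither the B cell receptor nor class II molecules as far as is known, and the lymph node holds B cells and dendritic cells beside its T cells.

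Class II genes are known to share a promoter module, an X box followed by a Y box, that is read by the RFX and NF-Y factors under the control of Ciita. The promoters are shown because these genes are the ones compared with each other below, and binding of the factors was not measured. RefSeq promoters (build GRCm38.p6) were matched for 25 of the 33 genes, 6 of the 8 class II genes among them. Bases -120 to -31 from the RefSeq start are printed 5′ to 3′ on the gene's own strand for 5 class II genes and for Vpreb3. Capitals mark GCAAC, letters chosen after the sequences had been seen, and ATTGG, the core of the Y box, or the octamer in Vpreb3. The H2-Aa window is chr17:34287854-34287943 on the minus strand, that of H2-Eb1 chr17:34305747-34305836, that of H2-DMb2 chr17:34145129-34145218, that of H2-Oa chr17:34092259-34092348, that of H2-Ob chr17:34238785-34238874 and that of Vpreb3 chr10:75948180-75948269, the last 5 on the plus strand. In GENCODE M21 the windows of H2-Aa, H2-Eb1 and H2-Ob lie upstream of the gene, those of H2-DMb2 and Vpreb3 lie within the gene model but in no exon, and 9 of the 90 bases of H2-Oa reach its first exon.
H2-Aa: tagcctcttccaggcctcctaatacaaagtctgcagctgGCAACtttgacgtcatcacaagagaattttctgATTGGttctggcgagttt
H2-Eb1: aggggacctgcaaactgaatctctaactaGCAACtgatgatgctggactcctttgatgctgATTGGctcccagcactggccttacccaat
H2-Oa: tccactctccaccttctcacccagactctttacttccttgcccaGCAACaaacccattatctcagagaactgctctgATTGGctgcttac
H2-Ob: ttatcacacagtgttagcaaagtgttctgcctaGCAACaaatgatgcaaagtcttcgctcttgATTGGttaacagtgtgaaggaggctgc
H2-DMb2: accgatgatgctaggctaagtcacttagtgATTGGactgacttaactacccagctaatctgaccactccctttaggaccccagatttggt
Vpreb3: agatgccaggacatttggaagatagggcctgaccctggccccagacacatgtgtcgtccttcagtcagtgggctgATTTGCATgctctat

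GCAAC stood 28 bases before ATTGG in H2-Aa and H2-Oa, 27 in H2-Eb1 and 25 in H2-Ob. This pair, allowed a gap of 20 to 50 bases on either strand of the 250 bases before the start, was defined after these sequences had been seen. It occurred in 1.11% of 32851 RefSeq promoters and in 5 of the 25 matched genes, these 4 of the 6 matched class II genes and Fcrla. H2-DMa, matched but without a window here, did not hold the pair. The longer Y box letters CTGATTGG, which contain ATTGG, occurred in 3.83% of promoters, ATTGG alone in 33.8% and the X box letters CCTNGNNAC in 13.5%. Of the 5 class II windows shown, CCTNGNNAC was found in that of H2-Ob alone, and H2-DMb2 had neither these letters nor GCAAC, only ATTGG at -90. The octamer ATGCAAAT, read on both strands, occurred in 1.60% of promoters, and in Vpreb3 it lay at -45 as ATTTGCAT. Blnk, whose promoter is not shown, also held the octamer, at -130.

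Library depth ran from 24689964 to 33497078 counts on genes. CD8 transcripts were high in all libraries. Cd8a stood at 644 ± 54.2 and Cd8b1 at 946 ± 61.2 TPM (SD, n = 12), where TPM is RSEM's transcript level per gene length. These values do not measure how pure the CD8+ T cells were. Values between libraries are given in CPM, counts scaled to library size with edgeR's TMM factors. For the 33 genes, CT2 of day 2 stood lowest of the 12 libraries, for 24 genes. CT10 of day 1 together with CT2 of day 2 made up the lowest 2 libraries for 12 genes, most of the class II genes among them. These counts were not made over all genes tested, so they have no background. Results that rest on this pair are given with and without it, a choice made after the values were seen.

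Per gene length, the class II genes led the set. Cd74 averaged 963 ± 155 TPM (SD, n = 12), H2-Aa 581 ± 93.3, H2-Eb1 371 ± 59.2 and H2-Ab1 314 ± 44.8. The last 2 of these differed by about their spread between libraries. Within each library H2-Eb1 was nonetheless the higher, at 1.11 to 1.27 times H2-Ab1. Cd74 and H2-Aa stood further apart. Cd72 followed at 84.2 ± 6.83 TPM, then H2-DMa at 65.3 ± 6.78, H2-Ob at 52.1 ± 5, Cd79b at 49.4 ± 6.74 and H2-Oa at 44.8 ± 4.24 TPM, an order in which neighbours from H2-Ob down did not differ beyond their spread. The other B cell genes lay from 33.3 ± 7.18 TPM for Cd79a down to 2.12 ± 0.82 for Vpreb3 and 1.80 ± 0.46 for Ebf1. In comparison with Cd8a, the mean TPM of Cd74 was higher and that of Cd79b lower.

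**Figure D1:**
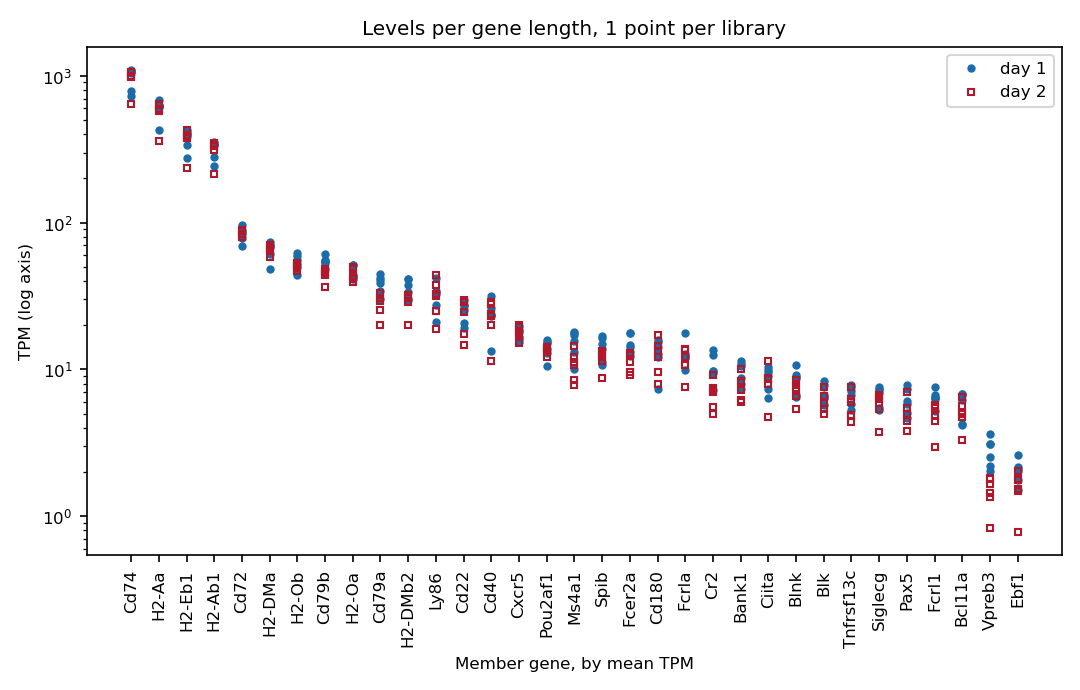
Level of each gene in TPM on a log axis, with genes ordered by mean over the 12 libraries; filled circles are day 1 libraries and open squares day 2 libraries. The 4 leading class II genes, at means of 314 to 963 TPM, stand clear of Cd72 at 84.2 TPM, and the lowest genes are Vpreb3 and Ebf1.

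The comparison of the days answers how far the set repeated from day 1 to day 2. The fitted level was lower on day 2 for 32 of 33 genes, against 49.3% of all genes tested, and the median log2 difference, day 2 minus day 1, was -0.24 over the set and 0.001 over all genes tested. The set's median was -0.14 without CT6 of day 1 and -0.15 without CT2 of day 2. In some alternative fits the difference was above 0 for Ciita, Cd180, Ly86, Cd40, Cxcr5, Cd74, H2-Aa, H2-Ab1, H2-Eb1 and H2-DMa. That of Ly86, for example, ran from -0.11 to 0.15 log2, so the sign of these genes is not stable. Of the set, 16 genes were lower on day 2 at all 6 times (background 1.03%), and 4 genes, Cd79b, Vpreb3, Pax5 and Fcer2a, had every day 2 library below every day 1 library (background 0.0366%, which is 6 genes). In edgeR's quasi-likelihood test none of the 33 passed at an adjusted p under 0.05 (background 0%), and the adjusted p was 1 for each. At an unadjusted p under 0.05, 16 of the 33 were lower on day 2 and none higher, against 1.16% of all genes tested that were lower. DESeq2 passed Cd79a, Cr2 and Fcer2a, 3 of the only 6 genes it passed (0.0366%). Without CT10 of day 1 and CT2 of day 2, edgeR passed Cd79a, Cd79b, Cr2, Fcer2a and Ms4a1, 5 of 16 genes (0.0946%). With the circadian time as a factor, which pairs the libraries of a time, none passed. A lower value in these bulk libraries cannot be told apart as fewer cells of a type or less RNA per cell.

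**Figure D2:**
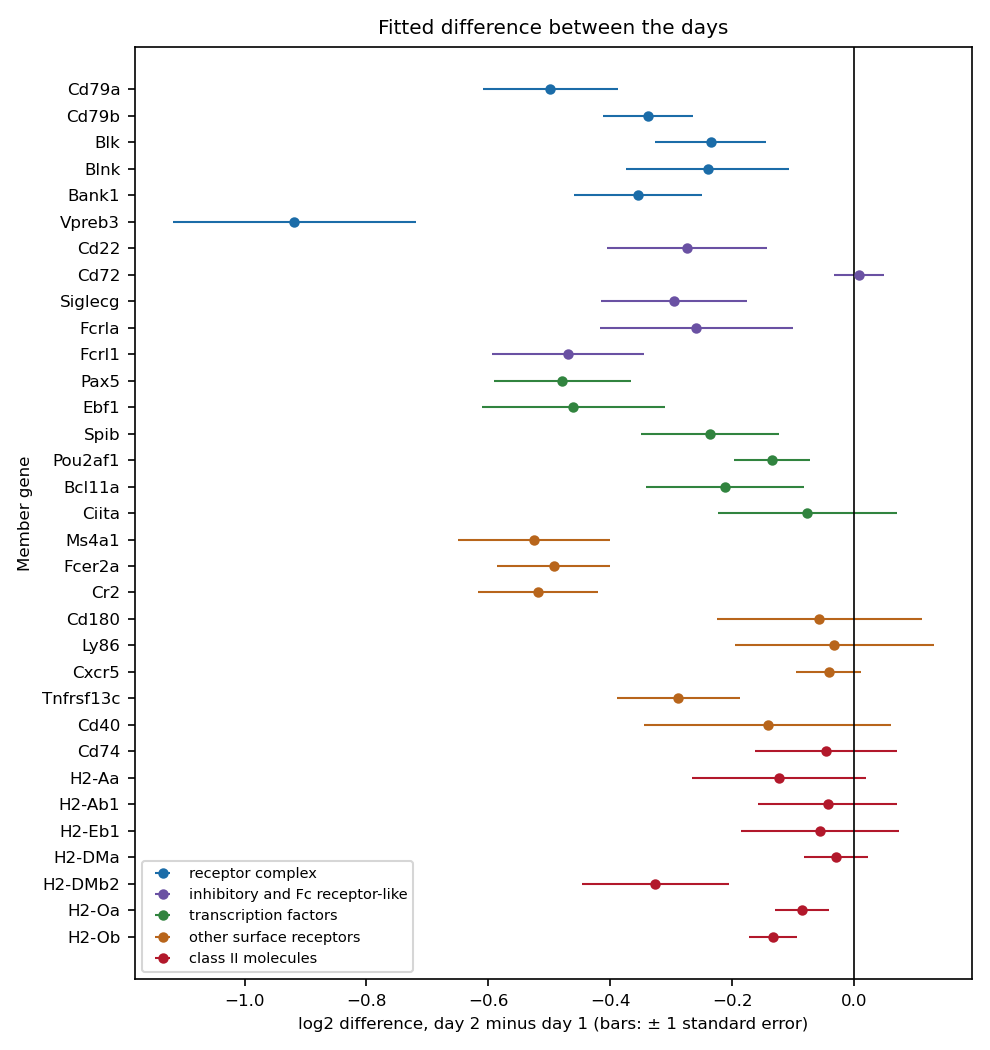
Fitted log2 difference, day 2 minus day 1, for each of the 33 genes, coloured by role; bars are ± 1 standard error and the line marks no difference. All points but that of Cd72 lie left of the line, Vpreb3 is farthest at -0.92, and most class II genes lie near it.

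Genes of the B cell receptor complex gave the lowest median day difference of the 5 roles, -0.35 log2, with 6 of 6 genes lower on day 2, 5 of them at all 6 times. Cd79a (chr7:24897381-24902197), a signalling chain of the receptor, ranged on day 1 from 30.3 through a median of 40.6 to 44.8 CPM and on day 2 from 20.2 through 29.5 to 32.5 CPM. The days overlapped only through CT10 of day 1, the lowest of its day. The fitted difference of Cd79a was -0.50 ± 0.11 log2 (standard error), a 1.41-fold lower level on day 2 with an unadjusted p of 0.000584. Cd79b (chr11:106311341-106314762), the partner chain, ranged from 45.5 through 50.8 to 58.4 CPM on day 1 and from 33.6 through 42.2 to 44.2 CPM on day 2. The days did not overlap, and the difference was -0.34 ± 0.07 log2 (unadjusted p of 0.000539). The TPM ratio of Cd79a to Cd79b was 0.67 ± 0.07 (SD, n = 12), from 0.55 to 0.83.

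Vpreb3 (chr10:75943057-75949657), which binds immunoglobulin chains during their assembly, had the lowest fitted difference of the set, -0.92 ± 0.20 log2 (unadjusted p of 0.000503). It ranged from 0.85 through 1.19 to 1.39 CPM on day 1 and from 0.36 through 0.66 to 0.79 CPM on day 2, with no overlap. These values rest on 9 to 40 counts per library, so its fold carries a wide counting error. Among the adaptors, the scaffold Bank1 differed by -0.35 ± 0.11 log2, the kinase Blk by -0.24 ± 0.09 and the linker Blnk by -0.24 ± 0.13. Blnk was the gene of the 6 whose unadjusted p was not under 0.05 (0.0952). Summed over the 6 genes, the level was 145 ± 14.7 CPM on day 1 against 112 ± 13.6 CPM on day 2 (SD over the 6 libraries of a day), lower at all 6 times, and the ratio of the means was 0.775, or 0.779 without CT10 of day 1 and CT2 of day 2.

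Among inhibitory and Fc receptor-like molecules, 4 of 5 genes were lower on day 2, 3 at all 6 times, with a median of -0.27 log2. Fcrl1, an Fc receptor-like protein of B cells, differed by -0.47 ± 0.13 log2 and Siglecg, an inhibitory sialic acid receptor, by -0.30 ± 0.12, both with an unadjusted p under 0.05. The inhibitory co-receptor Cd22 differed by -0.27 ± 0.13 log2 and the intracellular Fcrla by -0.26 ± 0.16. Cd72 (chr4:43446462-43454628), a C-type lectin that restrains receptor signalling, was the exception. It ranged from 72.7 through 78.8 to 81.9 CPM on day 1 and from 75.6 through 76.7 to 83.2 CPM on day 2. The days overlapped throughout, and the difference was 0.01 ± 0.04 log2 with a 95% interval from -0.07 to 0.09. Its highest library was 1.14 times its lowest, the smallest such ratio of the 33 genes.

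All 6 transcription factors were fitted lower on day 2, with a median of -0.22 log2, and 2 of them, Pax5 and Ebf1, at all 6 times. Pax5 (chr4:44524757-44710487), the B lineage commitment factor, lay between 27.0 and 35.8 CPM on day 1 and between 15.4 and 26.0 CPM on day 2, a difference of -0.48 ± 0.11 log2 (unadjusted p of 0.000947). Ebf1, which acts beside Pax5 in early B cells, differed by -0.46 ± 0.15 log2. The Ets factor Spib differed by -0.24 ± 0.11, Bcl11a, a zinc finger factor needed for lymphoid development, by -0.21 ± 0.13, and Ciita, the master regulator of class II genes, by -0.08 ± 0.15 log2. Pou2af1 (chr9:51213708-51240080), the B cell coactivator of octamer factors and the factor of highest mean TPM (13.7 ± 1.45, SD, n = 12), ranged from 24.8 through 27.9 to 31.7 CPM on day 1 and from 24.2 through 25.9 to 26.7 CPM on day 2. Its days overlapped, and the difference of -0.14 ± 0.06 log2 had an unadjusted p of 0.0484.

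The other surface receptors split between 4 genes with day differences of -0.29 log2 or lower and 4 nearer 0. Fcer2a (chr8:3681737-3694175), the low-affinity IgE receptor, had the smallest p of the set in the day test. It ranged from 23.2 through 27.9 to 33.3 CPM on day 1 and from 17.1 through 19.7 to 23.2 CPM on day 2. The lowest day 1 library, CT10, stood just above the highest day 2 library, CT6. Its difference was -0.49 ± 0.09 log2, 1.41-fold lower on day 2, with an unadjusted p of 0.000143 and, in edgeR's quasi-likelihood test with single libraries left out, adjusted p-values from 0.0798 to 1.00.

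Cr2 (chr1:195136811-195176716), a complement receptor, ranged from 19.9 through 28.3 to 34.6 CPM on day 1 and from 15.0 through 19.4 to 26.2 CPM on day 2. The days overlapped, but each day 2 library was below the day 1 library of the same time. The difference was -0.52 ± 0.10 log2 (unadjusted p of 0.000153). Ms4a1, the target of CD20 antibodies, differed by -0.53 ± 0.12 log2, and Tnfrsf13c, the receptor for the survival factor BAFF, by -0.29 ± 0.10, both lower at all 6 times.

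Cxcr5 (chr9:44511787-44561877), the chemokine receptor that guides B cells to follicles and is also found on some T cells, differed by -0.04 ± 0.05 log2. The Toll-like receptor relative Cd180 differed by -0.06 ± 0.17 and its partner Ly86 by -0.03 ± 0.16 log2, and Cd40, which receives help from T cells, by -0.14 ± 0.20. Standard errors of Cd180, Ly86 and Cd40 were wider than that of Fcer2a. Ly86 (chr13:37345208-37419036) ranged from 15.3 through 23.8 to 31.3 CPM on day 1 and from 13.7 through 24.1 to 31.1 CPM on day 2. The ranges nearly coincided, with CT10 lowest on day 1 and CT2 lowest on day 2.

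Class II molecules had the day difference nearest 0 of the 5 roles, a median of -0.07 log2, although all 8 were fitted lower on day 2. In some alternative fits Cd74, H2-Aa, H2-Ab1, H2-Eb1 and H2-DMa were fitted higher. Cd74, on chromosome 18, ranged from 612 through 882 to 929 CPM on day 1 and from 547 through 842 to 934 CPM on day 2. The lowest library of each day stood apart from the others, CT10 on day 1 and CT2 on day 2, and the remaining libraries overlapped. The difference was -0.05 ± 0.12 log2, with a 95% interval from -0.27 to 0.18. The antigen-presenting chains H2-Aa, H2-Ab1 and H2-Eb1 differed by -0.12 ± 0.14, -0.04 ± 0.11 and -0.06 ± 0.13 log2. Within a library these chains kept close to each other, except in CT2 of day 1. The TPM ratio of H2-Aa to H2-Ab1 was 1.85 ± 0.13, that of H2-Eb1 to H2-Ab1 1.18 ± 0.05 and that of Cd74 to H2-Aa 1.66 ± 0.14 (SD, n = 12). In CT2 of day 1 the ratio of H2-Aa to H2-Ab1 was 2.20, against 1.69 to 1.93 in the other libraries. That of Cd74 to H2-Aa was 1.28 there, against 1.58 to 1.79 in the others.

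The peptide loading genes were less alike. H2-DMa differed between days by -0.03 ± 0.05 log2, while H2-DMb2, which encodes a chain that pairs with it, differed by -0.33 ± 0.12 log2 (unadjusted p of 0.0183) and was lower at 5 of 6 times. Its near copy H2-DMb1, which is outside the set, differed by -0.06 ± 0.13 log2, and reads that fit both copies make each value uncertain. The same holds for H2-Eb1 and its relative H2-Eb2. The TPM ratio of H2-DMa to H2-DMb2 was 1.61 to 2.05 on day 1 and 2.14 to 2.91 on day 2, with no overlap. H2-Ob, a chain of the H2-DM inhibitor, differed by -0.13 ± 0.04 log2 (unadjusted p of 0.0048) and H2-Oa by -0.09 ± 0.04 log2.

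The class II genes were also set against the receptor complex genes. The ratio of the CPM sums, class II over receptor complex, was 13.8 to 16.5 on day 1, with a median of 14.9, and 16.1 to 20.8 on day 2, with a median of 18.1. It was higher on day 2 at all 6 times, although the 2 days overlapped between 16.1 and 16.5. The class II sum itself was 2183 ± 266 CPM on day 1 against 2083 ± 335 CPM on day 2 (SD over 6 libraries), a ratio of 0.954 that became 1.02 without both CT2 libraries and 0.966 without CT10 of day 1 and CT2 of day 2. This comparison of sums was chosen with the values known and carries no test.

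**Figure D3:**
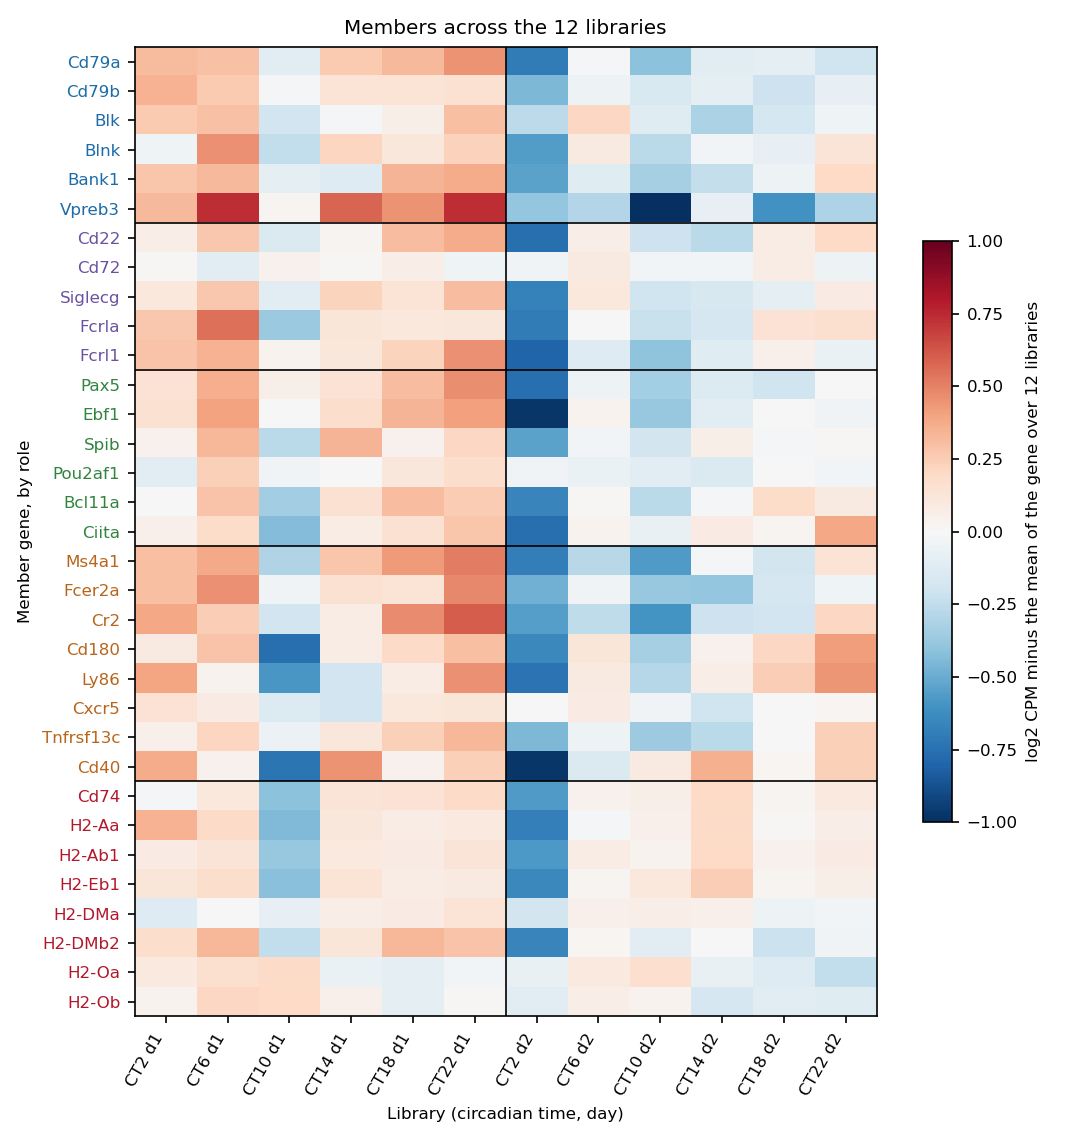
Heat map of the 33 genes, grouped by role, over the 12 libraries, as log2 CPM minus the mean of the gene; the colour scale stops at 1 either way. Most receptor complex rows are red in day 1 outside CT10 and blue or pale in day 2, and CT2 of day 2 is blue in most rows of every role. In the class II rows Cd74, H2-Aa, H2-Ab1 and H2-Eb1, CT10 of day 1 and CT2 of day 2 are the 2 blue libraries.

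Over the set, CT2 of day 2 was the library that stood apart, at a median of -0.57 log2 from the genes' own means. Next came CT10 of day 2 at -0.20 and CT10 of day 1 at -0.15, the lowest libraries for 2 genes and for 1 gene. At the other end, CT22 of day 1 was the highest library for 14 genes. The 2 lowest libraries of a gene were exactly CT10 of day 1 and CT2 of day 2 for 5 of 8 class II genes, 3 of 8 other surface receptors, 3 of 6 transcription factors, 1 of 5 inhibitory molecules and none of the receptor complex. H2-Ab1 stood at 208 CPM in CT10 of day 1 and 182 CPM in CT2 of day 2, against 277 to 310 CPM in the other 10 libraries. Summed class II levels were 1642 and 1426 CPM in this pair and 2126 to 2389 CPM in the others.

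Not every gene followed this pattern. The highest library exceeded the lowest by a median ratio of 1.99 over the set and 1.48 over all genes tested. The ratio was 1.14 for Cd72, 1.25 for H2-DMa, 1.27 for Cxcr5, 1.30 for H2-Ob, 1.31 for Pou2af1 and 1.36 for H2-Oa, which were below the median of all genes. H2-Oa had its highest library in CT10 of day 1, one of the 2 libraries in which H2-Aa, H2-Ab1 and H2-Eb1 were lowest.

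Summed markers of other cells were low in the same pair of libraries in most of the lists read, but not in all. The sum of 12 dendritic cell markers was 772 CPM in CT10 of day 1 and 750 CPM in CT2 of day 2, against 898 to 1099 CPM in the other 10. That of 12 monocyte and macrophage markers was 446 and 451 CPM, against 707 to 1596 CPM, and that of 6 CD4 T cell markers 90.5 and 102 CPM, against 123 to 155 CPM. The sum of 5 neutrophil markers was 11.4 and 11.3 CPM, against 18.3 to 97.7 CPM, so these 4 lists were all lowest in this pair. The same held for sums of plasma cell markers (91.1 and 90.7 CPM against 96.5 to 146), germinal centre markers (63.2 and 62.5 against 65.4 to 79.1), other B cell genes (2222 and 2171 against 2274 to 2549) and other class II pathway genes (817 and 855 against 939 to 1149). Within these lists some genes were not below the other 10 in both libraries. Among them were Jchain, Sdc1, Xbp1 and Tnfrsf13b (plasma cell) and Rgs13, Fas and Bcl6 (germinal centre). Izumo1r and Cd40lg (CD4 T cell), Retnlg (neutrophil) and Ccr7 (dendritic) were others. Ikzf3 of the other B cell genes stood above the other 10 in both, at 222 and 221 CPM against 179 to 216. The sum of plasmacytoid dendritic markers was 311 and 357 CPM, against 328 to 446 CPM. That of natural killer cell markers was 109 and 136 CPM, against 130 to 144 CPM, so only CT10 of day 1 was below the others in both sums. Ccr9 and Eomes made up much of these sums and stood at 201 and 111 CPM in CT2 of day 2. Siglech, Tcf4, Ly6d, Ncr1 and Klrb1c were each below the other 10 in both libraries, while Klk1, Bst2, Klre1, Ccr9 and Eomes were not. Marginal zone markers, at 246 and 234 CPM against 230 to 279, were inside the range of the other libraries. So were follicular dendritic and stromal markers, at 227 and 238 CPM against 216 to 306. The sum of 7 CD8 T cell markers was 6505 and 6982 CPM, against 5474 to 6601 CPM. No listed marker was at 0 in all libraries, and Cd83 and Ccr7 of the dendritic list are also made by T or B cells. The part of these cells in the levels of the 33 genes was not tested.

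**Figure D4:**
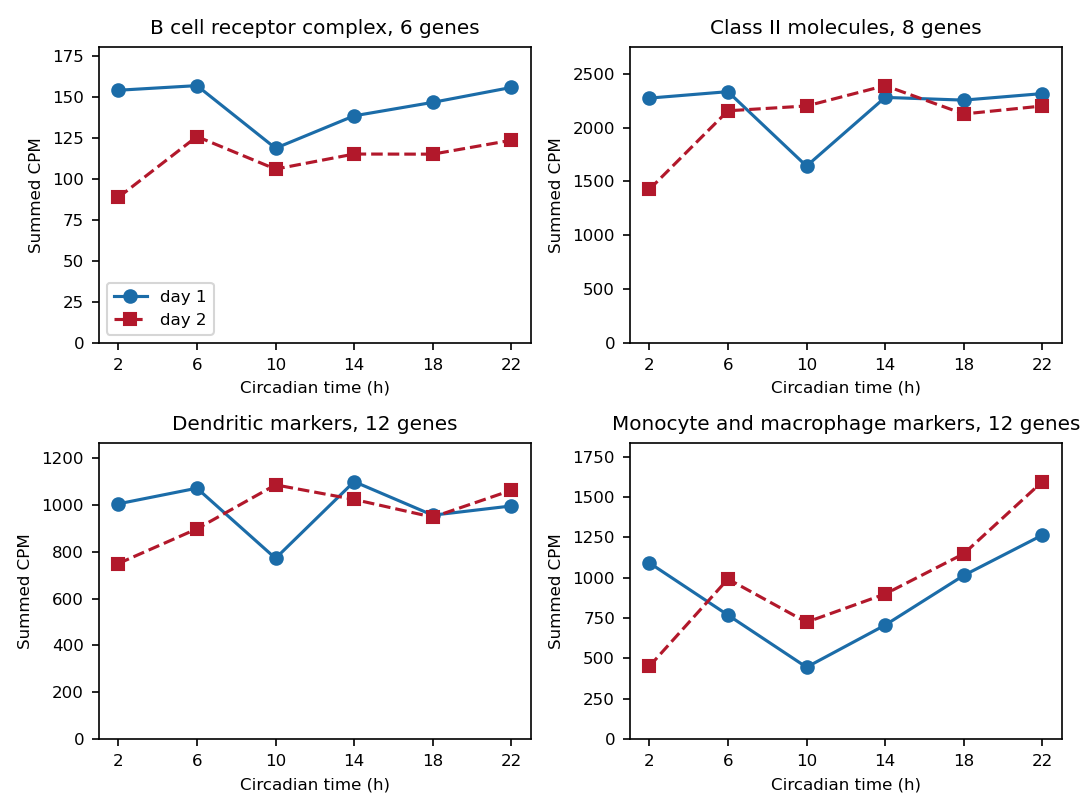
Summed CPM at each circadian time (h) for the 6 receptor complex genes, the 8 class II genes, 12 dendritic markers and 12 monocyte and macrophage markers; circles with solid lines are day 1 and squares with dashed lines day 2, 1 library per point. Receptor complex sums of day 2 run below those of day 1 at all 6 times, while the days cross in the other panels. All 4 panels are lowest of their day at CT10 on day 1 and at CT2 on day 2.

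Between days, these marker sums overlapped. The mean sum of the monocyte and macrophage markers was 882 ± 297 CPM on day 1 against 969 ± 390 CPM on day 2 (SD over the 6 libraries), lower on day 2 at 1 of 6 times, with a median difference of 0.21 log2. The Fc receptor Fcgr1 of this list differed by 0.85 ± 0.48 log2. For dendritic markers it was 983 ± 116 and 961 ± 125 CPM, with a median difference of -0.07 log2, and Cd83 and Clec9a had the smallest p among them. For follicular dendritic and stromal markers it was 246 ± 33.2 and 231 ± 9.80 CPM, with Pdpn and Ccl19 under 0.1 CPM on average.

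Lists of other B cell states were also read. The mean sum of plasma cell markers was 116 ± 18.1 CPM on day 1 against 107 ± 12.3 CPM on day 2, with Tnfrsf17 under 0.1 CPM. That of germinal centre markers was 70.7 ± 4.67 and 69.7 ± 5.86 CPM, with Mef2b under 0.1 CPM. Within that list Rgs13, a germinal centre regulator of G protein signals, averaged 0.45 CPM and differed by -0.66 ± 0.26 log2. That of marginal zone markers was 248 ± 17.3 and 253 ± 14.6 CPM. The genes of highest CPM in these 3 lists, Xbp1, Bcl6 and Dtx1, are also made by T cells.

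The circadian comparison asked whether the set varied with time of day. In the test for a 24 h wave, edgeR's quasi-likelihood test passed none of the 33 at an adjusted p under 0.05, and none of all genes tested (0%). At an unadjusted p under 0.05 it took 4 of the 33, H2-Oa, Cxcr5, H2-Ob and Ly86, against 13.3% of all genes. The median amplitude, the log2 distance from mean to peak, was 0.12 over the set and 0.10 over all genes tested. In the test of the 6 times with no shape assumed, none of the 33 passed, against 0.256% of all genes (42 genes, or 20 with the day as a block). At an unadjusted p under 0.05, 5 of the 33 did, Cd180, H2-Oa, Cxcr5, Bcl11a and Blnk, against 12.7% of all genes. The set was near the background in both tests of this fit. Without a count filter the test of times passed 20 of the 33 and 2146 of 29911 genes. In that setting the set's share was larger than that of all genes.

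H2-Oa (chr17:34092340-34095234) and H2-Ob (chr17:34238903-34254414) had fitted peaks in the subjective day. H2-Oa ranged from 35.3 through 38.9 to 43.2 CPM on day 1 and from 31.9 through 36.0 to 42.7 CPM on day 2. On both days its highest library was CT10, and the mean of the 2 libraries went from 43.0 CPM at CT10 to 34.5 CPM at CT22. Its amplitude was 0.16 ± 0.03 log2 with a peak at 7.63 h, and the adjusted p was 0.238 in edgeR's quasi-likelihood test. DESeq2 gave an adjusted p of 0.0169 for H2-Oa, and edgeR without both CT2 libraries 0.0371, over a range of 0.0169 to 0.611 in all alternatives run.

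H2-Ob ranged from 77.2 through 85.1 to 95.6 CPM on day 1 and from 73.7 through 76.8 to 86.7 CPM on day 2. CT6 and CT10 were the 2 highest libraries of each day. Its amplitude was 0.12 ± 0.04 log2 with a peak at 7.46 h and an adjusted p of 0.296 in edgeR's quasi-likelihood test. The TPM ratio of H2-Oa to H2-Ob stayed at 0.86 ± 0.05 (SD, n = 12).

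Cxcr5 ranged from 23.9 through 29.1 to 30.1 CPM on day 1 and from 23.8 through 27.4 to 28.9 CPM on day 2. CT14 was the lowest library on both days. Its amplitude was 0.13 ± 0.04 log2 with a peak at 0.83 h and an adjusted p of 0.288 in edgeR's quasi-likelihood test.

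Cd180 (chr13:102693558-102739629) ranged from 15.4 through 28.6 to 31.9 CPM on day 1 and from 16.5 through 27.4 to 34.6 CPM on day 2. Its 2 CT10 libraries were both low, at 15.4 and 20.5 CPM, and CT22 was the highest on both days, while the CT2 libraries disagreed at 27.6 and 16.5 CPM. Over the times, the mean of Cd180 went from 18.0 CPM at CT10 to 33.2 CPM at CT22, a fitted range of 0.89 log2 with an adjusted p of 0.233 in edgeR's quasi-likelihood test. The adjusted p of Cd180 was 0.00362 in DESeq2, 0.00998 and 0.00898 in edgeR without the CT2 library of day 1 or of day 2, and 0.0173 without CT10 of day 1 and CT2 of day 2. In 18 of 24 alternatives Cd180 did not pass, with adjusted p-values of up to 0.564, and without CT10 of day 1 alone the range was 0.69 log2 with an adjusted p of 0.533.

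Ly86, the partner of Cd180, went from 17.0 CPM at CT10 to 31.2 CPM at CT22 as means of 2 libraries. Its wave amplitude was 0.31 ± 0.11 log2, with a peak at 21.7 h and an adjusted p of 0.368 in edgeR's quasi-likelihood test. Without the CT2 library of day 2 the adjusted p of Ly86 was 0.0241 and the amplitude 0.39 log2, and without CT10 of day 1 and CT2 of day 2 it was 0.0299, over a range of 0.0206 to 0.772 in all alternatives run. Monocyte and macrophage markers were also highest at CT22 on both days, at 1264 and 1596 CPM. Their part in Cd180 and Ly86 was not tested. Leaving out the CT2 library of day 1 passed 5 genes of the set in the test of times, Bcl11a, Cd180, Cd22, Ciita and Ly86. Leaving out that of day 2 passed 4 of the set, Cd180, Ciita, H2-Oa and Ly86. Over all genes, this test passed 6 to 1745 with single libraries left out, against 42 with all 12. That range does not give the share of all genes in the fits without a CT2 library. These counts are therefore not read as a result about the set.

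**Figure D5:**
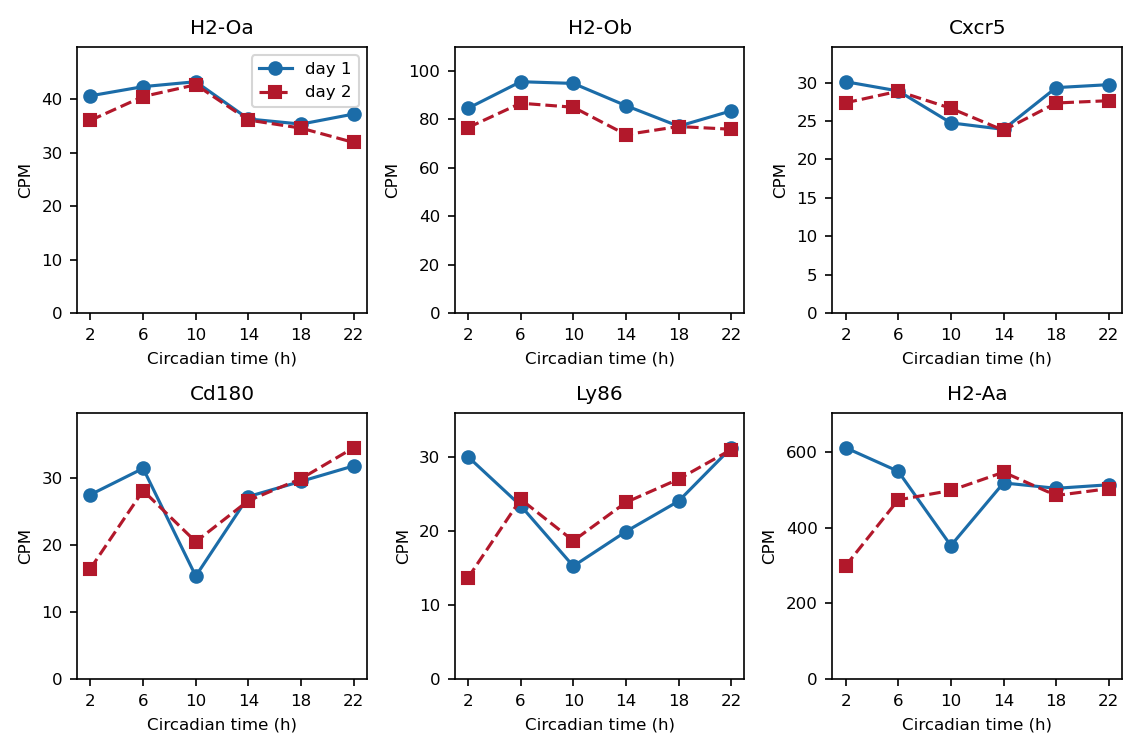
CPM against circadian time (h) for H2-Oa, H2-Ob, Cxcr5, Cd180, Ly86 and H2-Aa, with circles and solid lines for day 1 and squares and dashed lines for day 2, 1 library per point. H2-Oa is highest at CT10 on both days, Cd180 and Ly86 are highest at CT22 and low at CT10, and H2-Aa is low in a single library of each day.

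Genes of the same pathways outside the set were read from 2 lists. Of 34 other B cell genes tested, none passed any of the 3 edgeR tests. In the day comparison 25 were lower on day 2, 7 of them at an unadjusted p under 0.05 and none higher at that level, and the median was -0.06 log2. Fcmr, the receptor for IgM, differed by -0.40 ± 0.11 log2 and was lower at all 6 times. The list also holds kinases such as Lyn and Syk that other blood cells use.

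Of 13 other class II pathway genes tested, none passed any of the 3 edgeR tests and none had an unadjusted day p under 0.05. Their median day difference was -0.01 log2, with 7 lower. H2-Eb2, a class II chain gene, differed by -0.25 ± 0.17 log2 and Rfx5, a subunit of the X box factor, by 0.04 ± 0.04 log2. Rfx5 lay between 50.2 and 56.5 CPM in all 12 libraries. Outside these 2 lists, 1 marker gene passed a test, the chemokine receptor Ccr9 of the plasmacytoid dendritic list in the test of times (adjusted p of 0.0356 in edgeR's quasi-likelihood test), and naive CD8+ T cells also make it.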

How the data were processed

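Polyadenylated RNA of 12 libraries (6 circadian times on each of 2 days) was analysed from the authors' files. Per the submitters' processing notes, bcl2fastq 2.19, Trimmomatic 0.35, STAR 2.5.1b and RSEM 1.2.28 were used with GRCm38. Which gene annotation was used is not given in the sources used here. Unnormalised read counts per gene were deposited by the authors, with 1 column per strand setting. The column in which 11.4% to 13.9% of fragments matched no gene was used, against 77.6% to 80.9% in the opposite one. Rows that name no gene held 29.3% to 31.2% of fragments and were left out. The authors also deposited RSEM expected counts (estimated, rounded here) and TPM. Symbols and coordinates came from GENCODE M21, which matched 50376 of 50600 identifiers.

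Counts were fitted with edgeR 4.0.16 in R 4.3.3 (filterByExpr with the circadian time as group, TMM, quasi-likelihood F tests, Benjamini-Hochberg adjustment over 16396 genes, threshold 0.05). The 24 h test used a cosine and a sine, the test of times 5 coefficients, and the day test the day beside the wave. Alternatives used DESeq2 1.42.0, RLE factors, other filters, unstranded counts, expected counts, limma 3.58.1 on log2(TPM + 1) or log2(TPM + 0.1), a block, the day alone, and left-out libraries. The fits were tested on simulated counts in which each gene varied independently. No simulated library was low for many genes together, so that check does not cover the low pair of libraries.

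Replicate numbers are days in the labels, and libraries of equal number thus share a collection day. Over 10153 genes, the day 2 deviation at one time was correlated with that at each other time, and the 15 coefficients ran from -0.60 to 0.35 (median 0.08, with 6 above 0.1).

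The genes, lists and tests were chosen with earlier results of these data known. Values by library were given for the 5 genes of smallest p in the day test, the 3 in each circadian test and the gene of highest TPM in each role, and from other lists for genes that passed a test and the 2 of smallest day p, of which a few are not reported here. Pax5, Ms4a1, H2-Ab1, Rgs13 and ratios were added after their values were seen. Exons of Cd22, Cd72, Pax5, Bcl11a, Ciita, Cd180, Cxcr5, H2-DMa and H2-Oa overlap a gene on the opposite strand, which the stranded column separates.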

Additional observations from a re-analysis of the deposited data

Results flagged for a closer look

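Of 76 series of 6 libraries (each gene and each summed role on each day), 11 held a library far below the other 5, and none held one far above. Chance flags about 5% of such series when they are independent. These are not, as the genes share the libraries and the sums hold the genes, so the count cannot be set against that share. On day 1 the library was CT10 each time. There Cd79a stood at 30.3 CPM against 39.5 to 44.8 in the other 5, Ms4a1 at 25.4 against 37.9 to 44.5, and Cd180 at 15.4 against 27.3 to 31.9. H2-Ab1 stood at 208 CPM against 286 to 296, H2-Eb1 at 251 against 355 to 380, and the summed class II genes at 1640 against 2255 to 2333.

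On day 2 the library was CT2 each time. Cd74 stood at 547 CPM against 827 to 934, H2-Aa at 299 against 473 to 546, H2-Ab1 at 182 against 277 to 310, H2-Eb1 at 215 against 343 to 400, and the summed class II genes at 1430 against 2126 to 2389. The sum of dendritic markers, at 772 and 750 CPM, was below its other 10 libraries in the same pair. So was the sum of monocyte and macrophage markers, at 446 and 451 CPM. The part of these cells in these values was not tested.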

How the results depend on the processing

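The day test took no gene and none of the 33 in the reported fit, and 22 of 25 alternatives took none of the 33. DESeq2 took 6 genes, 3 of them of the set, omission of both CT2 libraries 6 and 2, omission of CT10 of day 1 with CT2 of day 2 (chosen after the data were seen) 16 and 5, and limma on TPM without a filter 1 and 0. The 24 h test took 246 genes and 1 of the set in DESeq2, 323 and 0 without a count filter, 431 and 2 without both CT2 libraries, and 74 and 1 without the low pair. The test of times (42 genes, 0 of the set) took 516 and 1 in DESeq2. Without a count filter it took 2146 of 29911 genes and 20 of the 33, a larger share of the set than of all genes. It took 21, 27 and 71 genes in limma with pseudocount 1, with 0.1 and without a filter. It took 527 and 2 without both CT2 libraries, and 1359 and 3 without the low pair. With the day as a replicate block it took 20 genes and none of the set, and the block changed no other call. With single libraries left out, genes taken ranged from 0 to 2 (day), 0 to 145 (24 h) and 6 to 1745 (times), and those of the set from 0 to 0, 0 to 1 and 0 to 5. The median day difference of the set ranged from -0.30 log2 (without CT10 of day 1) to -0.14 (without CT6 of day 1) and was -0.15 without CT2 of day 2, and 16 to 21 genes were lower on day 2 at every time left. That count was 14 in CPM without TMM, 12 in TPM and 22 without the low pair. The ratio of summed class II levels, day 2 over day 1, went from 0.954 to 1.01 when the CT2 library of day 2 was left out (0.909 to 1.01 over single omissions), and 1.02 with neither CT2 library. The receptor complex ratio stayed between 0.748 and 0.817. The causes were not tested. Depth limits Vpreb3 (9 to 40 counts per library) most, and 2 libraries per time limit the circadian tests.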
